A study of Rattus norvegicus with 24 samples.

Results

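Mitochondria in a muscle fibre join, divide and are removed, and 9 genes with central parts in these steps were read from the tibialis anterior (TA) of aged rats. The genes were Mfn1, Mfn2 and Opa1 for fusion, Dnm1l, Fis1 and Mff for fission, and Pink1, Fundc1 and Bnip3 for mitophagy. They were picked by symbol, with the row of the highest mean where a symbol has several rows, and all 9 of them were present among the 13458 symbols of the table. The clearest change was in Mfn2 and Pink1, which fell after repeated disuse in every animal. Of the other genes, Mfn1 passed the test in that comparison only after rescaling, and a second row of Mff, not used as its row here, also fell.

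All animals were aged male rats (23 ± 1 months) with no transgene named in the labels. In 9 of them an implanted pump infused tetrodotoxin (TTX), a toxin that closes voltage-gated sodium channels, round the left common peroneal nerve. That nerve serves the muscles that lift the foot, the TA among them. The left TA was taken after 6 to 7 days of TTX (atrophy, n = 3), after 9 further days without TTX (recovery, n = 3) or, following those 9 days, once TTX had been given again for 5 to 6 days (repeated atrophy, n = 3). The right TA of the same 9 animals, which received no TTX, was the control group and therefore pools the 3 times. Another 3 animals, 1 for each time, had the surgery without TTX (sham), and both of their limbs were sequenced, giving 24 limbs from 12 animals. The control is therefore the other leg of a treated animal, and the p-values measure the spread between these limbs.

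As background, the mitofusins Mfn1 and Mfn2 tether and fuse the outer membranes of neighbouring mitochondria, and Opa1 fuses the inner membranes and shapes the cristae. Division is carried out by the dynamin Dnm1l (DRP1), which is drawn from the cytosol to the outer membrane by receptors such as Mff and Fis1. Damaged mitochondria are marked for removal by the kinase Pink1, whereas Bnip3 and Fundc1 are outer membrane receptors that bind the autophagy machinery directly and are known for responses to low oxygen. In muscle, Mfn2 also links mitochondria to the sarcoplasmic reticulum.

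The promoters of Pink1, of Opa1, whose call was lost with the animal block, and of Bnip3, the most variable gene, are shown because they share a short motif. The windows run from 250 bases before to 50 bases after the RefSeq start (build GRCr8, which differs from the rn7 build of the expression table), and 7 of the 9 genes were matched in the RefSeq table. Mfn2 and Fundc1 were not matched by symbol there. Pink1 is on chromosome 5 (chr5:155825901-155826200, minus strand), Opa1 on chromosome 11 (chr11:84689851-84690150, minus strand) and Bnip3 on chromosome 1 (chr1:203154913-203155212, minus strand). Each line reads 5′ to 3′ on the gene's strand, and capitals mark ACGTG, the core of the hypoxia response element, on either strand.
Pink1: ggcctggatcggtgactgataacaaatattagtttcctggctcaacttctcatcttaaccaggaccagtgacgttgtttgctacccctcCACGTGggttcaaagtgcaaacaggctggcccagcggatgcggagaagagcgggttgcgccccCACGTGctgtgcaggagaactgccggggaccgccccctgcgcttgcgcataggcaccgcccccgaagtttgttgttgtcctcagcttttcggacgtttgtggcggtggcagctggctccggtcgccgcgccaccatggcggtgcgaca
Opa1: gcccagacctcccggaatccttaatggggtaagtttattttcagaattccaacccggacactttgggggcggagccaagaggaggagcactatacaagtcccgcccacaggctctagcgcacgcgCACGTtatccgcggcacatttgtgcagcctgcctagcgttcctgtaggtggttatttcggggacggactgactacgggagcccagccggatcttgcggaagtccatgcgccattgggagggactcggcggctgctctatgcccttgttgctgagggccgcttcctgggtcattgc
Bnip3: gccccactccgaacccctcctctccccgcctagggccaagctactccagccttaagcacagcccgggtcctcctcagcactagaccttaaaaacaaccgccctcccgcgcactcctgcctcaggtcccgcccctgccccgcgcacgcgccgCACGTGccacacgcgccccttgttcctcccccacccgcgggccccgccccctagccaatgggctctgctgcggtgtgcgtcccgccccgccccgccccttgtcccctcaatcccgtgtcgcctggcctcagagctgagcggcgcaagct
The E-box CACGTG holds that core on both strands. It began 161 and 98 bases before the start of Pink1 and 99 bases before that of Bnip3, whereas Opa1 had the core alone, from 125 bases before its start. The E-box was found in 6.42% of 33469 rat promoters of this length and the core in 19.3%. Of the other motifs searched on both strands, the FoxO element GTAAACA (3.78% of promoters) was in Dnm1l alone, CCGGAAG, bound by GABP, (8.75%) in Mfn1 and Fis1, and the estrogen-related receptor element AAGGTCA (4.61%) in none of the 7. These matches describe letters in a window and no binding was measured.

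Expression is given in CPM, the number of reads per 1000000 that fell in a row, and the depth inferred from the step between low values was 18.9 to 30.9 times 1000000 reads a limb, so that 1 read was worth at most 0.0530 CPM. The TA carried its defining myofibre markers (Ckm, Acta1, Mb, Pvalb, Myh1 and Myh4) at a summed 151200 to 203400 CPM in control, 162600 to 178700 in recovery, 71840 to 161300 in atrophy and 100900 to 130800 in repeated atrophy. The 10 most abundant genes held 24.3% to 32.7% of the CPM of a control limb, but 13.0%, 25.6% and 15.6% in the atrophy limbs and 15.6% to 19.2% in the repeated atrophy limbs. The median log2 fold change over all 14031 rows tested was 0.22 after atrophy and 0.20 after repeated atrophy, against 0.02 after recovery. In the left sham limbs, without TTX, it was 0.17 against control over 13822 rows. CPM is a share, and the cause of these shifts was not tested. Each comparison is therefore also given "rescaled", after dividing each limb by a trimmed mean of log ratios. By construction this brings the first 3 medians near 0, to 0.00, −0.01 and 0.01, and that of the sham limbs to 0.02. The second atrophy limb stands apart: its share of the 10 most abundant genes and its markers lie near control, and the calls against control that appear without that animal (Mfn2, Pink1 and Bnip3 after atrophy, Pink1 after recovery) are given with those genes. Without it the other 6 genes stayed uncalled after atrophy, at 0.12 (Mfn1), 0.33 (Opa1), 0.20 (Dnm1l), 0.19 (Fis1), 0.17 (Mff) and 0.37 (Fundc1), and the related genes were not refitted without it here. In whole muscle, fewer cells of a type and less RNA per cell cannot be told apart.

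A gene was called changed at a fold change of 1.2 or more when its adjusted p (Benjamini-Hochberg, over all rows tested) was no higher than 0.05 (limma, on log2(CPM + 1), a scale that understates changes of low genes). All 9 genes passed the filter on low values. After atrophy 0 of 9 were called by limma, against 20.3% of all rows called higher and 2.33% called lower, although 2 of the 9 had an unadjusted p below 0.05 (Mfn2 and Bnip3). After recovery 1 was called higher (Opa1; 4.4% of rows were called higher and 3.33% lower). After repeated atrophy 2 were called lower (Mfn2 and Pink1; 6.24% of rows were called lower and 28.1% higher). Rescaled, the counts were 2 lower after atrophy (Mfn2 and Pink1; 4.95% of rows lower and 4.73% higher), 1 higher after recovery (6.02% higher and 6.04% lower) and 3 lower after repeated atrophy (Mfn2, Pink1 and Mfn1; 12.1% lower and 13.1% higher). When limbs were compared within each animal (the animal as a block), the 2 calls after repeated atrophy held (27.1% of rows called), and there was no call among the 9 after atrophy, where limma called 0% of rows (2678 of 14031 at an unadjusted p below 0.05, among them 1 of the 9), or after recovery (0.0641%). Over the 9 genes the log2 fold change had a median of 0.12 in atrophy, 0.01 in recovery and 0.11 in repeated atrophy, against 0.22, 0.02 and 0.20 over all rows, and rescaled it was −0.25, −0.01 and −0.26, with 8 of 9 below 0 after either TTX period. The left sham limbs, without TTX, also had 8 of 9 below 0 against control when rescaled (median −0.11).

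**Figure D1:**
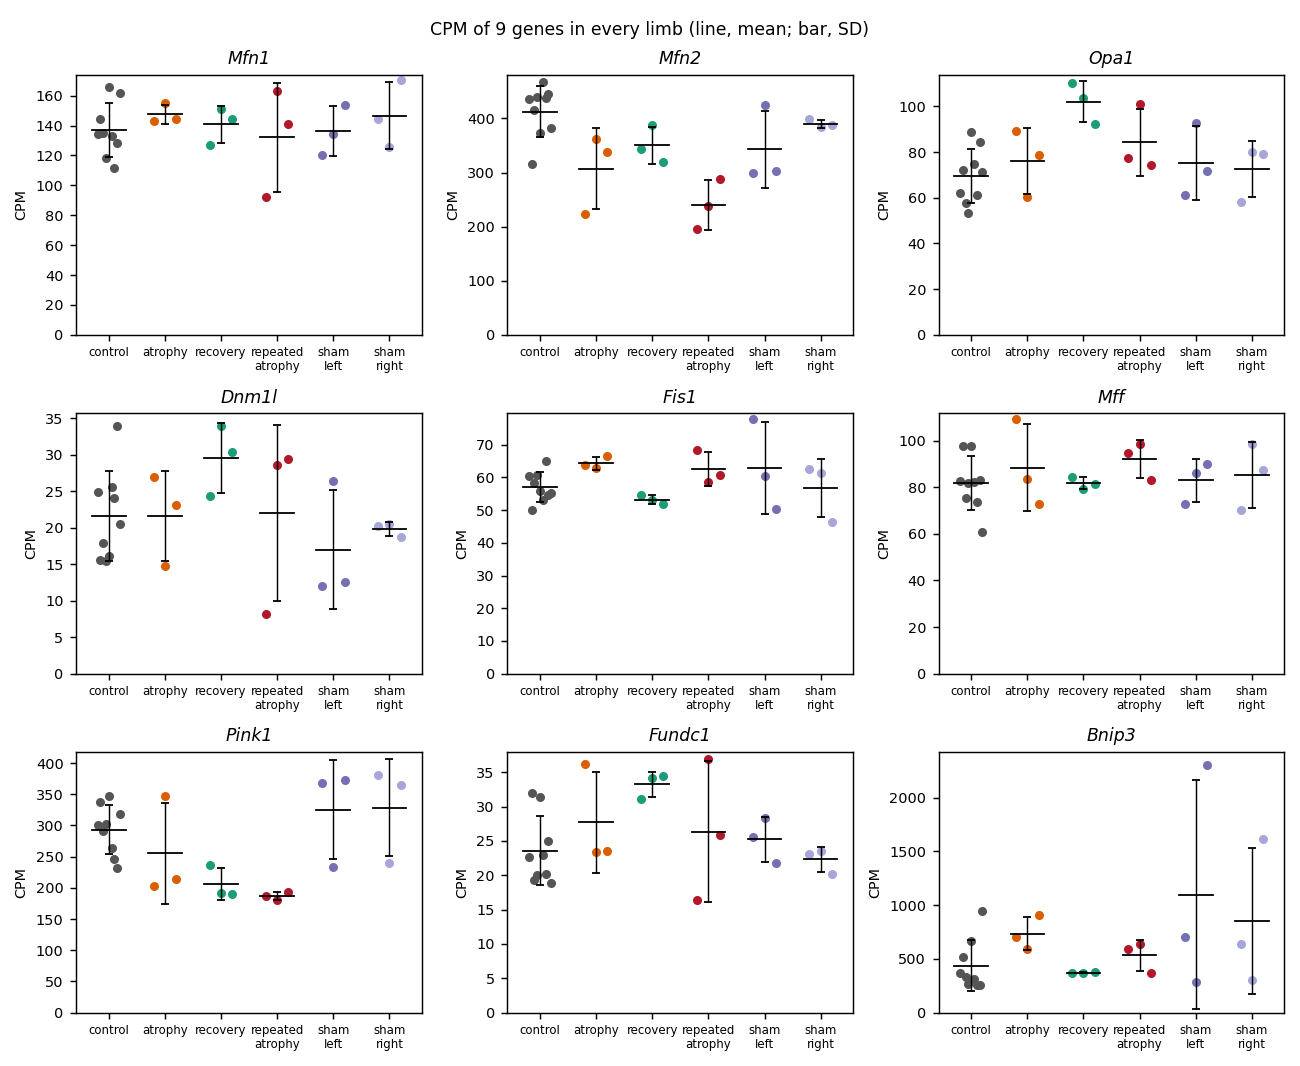
CPM of the 9 genes in each of the 24 limbs by group, 1 panel per gene; points are limbs, horizontal lines are group means and vertical bars are SDs, and every axis starts at 0. The 3 repeated atrophy limbs lie below all 9 control limbs for Mfn2 (195.3 to 287.9 against 315.6 to 467.6 CPM) and Pink1 (180.2 to 193.6 against 231.9 to 346.6), and the 3 recovery limbs lie above them for Opa1.

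Relative to the other genes, the levels in control limbs were compared per kilobase of row length. Bnip3 (268 ± 146 CPM per kilobase, SD, n = 9) and Pink1 (256 ± 34.5) were highest and overlapped each other. Mfn2 followed at 107 ± 12.2, then Mfn1 (61.5 ± 8.13) and Fis1 (60.2 ± 4.82), which overlapped, Mff (42.8 ± 6.07) and Opa1 (22.1 ± 3.81). Fundc1 (12.0 ± 2.55) and Dnm1l (8.64 ± 2.47) were lowest and overlapped. The place of Mff rests on its row of 1907 bases alone and leaves out a second row with a similar control level (75.8 ± 18.5 CPM against 81.7 ± 11.6). The mitophagy genes thus stood at both ends of the order, and the enzyme of fission was at its bottom.

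The fusion gene Mfn2 (chromosome 5, 158304549 to 158334191, rn7) was between 315.6 and 467.6 CPM in control, with a median of 435.1. It was at 195.3, 239 and 287.9 CPM in the repeated atrophy limbs, 223.1, 361.9 and 337.3 in the atrophy limbs and 343.3, 388.1 and 320.1 in the recovery limbs. All repeated atrophy limbs were below all control limbs, whereas the atrophy and recovery limbs overlapped control. Mfn2 fell after repeated atrophy from 412.3 ± 47.1 to 240.7 ± 46.3 CPM (log2 fold change −0.78, SE 0.16, adjusted p = 0.00134). Rescaled, the fall was −1.17 (SE 0.19, adjusted p = 3.88e-04), and with the animal block it was −0.70 (adjusted p = 0.02). Left limbs were lower in 3 of 3 animals, by 0.70 on the log2 scale on average (mean −0.70, SD 0.09).

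After atrophy Mfn2 was at 307.4 ± 74.0 CPM (−0.44, SE 0.16, adjusted p = 0.0526), and left limbs were lower in 3 of 3 animals (mean −0.39, SD 0.49). Rescaled, it was called at −0.81 (SE 0.19, adjusted p = 0.02), and without the second atrophy animal it was called as deposited (−0.59, adjusted p = 0.0199), but the block gave −0.39 with an adjusted p of 0.273 (rescaled −0.66, adjusted p = 0.252). After recovery it was at 350.5 ± 34.6 CPM (−0.23, SE 0.16, adjusted p = 0.393), again lower in 3 of 3 animals (mean −0.36, SD 0.17). The sham animals, with no TTX, had left and right Mfn2 of 300.1 and 398.6, 424.3 and 383.4, and 303.6 and 387.9 CPM. Their left limbs were thus lower in 2 of 3 animals, and these 2 left limbs, without TTX, were also below all control limbs. The test against control gave −0.28 (SE 0.15, adjusted p = 0.411). Rescaled, left sham limbs were lower in 3 of 3 animals (mean −0.22, SD 0.18), and the value against control was −0.49 (SE 0.19, unadjusted p = 0.0204, adjusted p = 0.53 by limma).

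Mfn1 (chromosome 2, 115315878 to 115357634), the other mitofusin, was between 111.3 and 165.9 CPM in control (median 134.3). It was at 143, 154.8 and 144.4 CPM in the atrophy limbs, 126.8, 151.1 and 144.5 in the recovery limbs and 92.15, 163 and 141.3 in the repeated atrophy limbs. These groups overlapped control apart from the first repeated atrophy limb, which was the lowest of the 24 limbs for Mfn1, Mfn2, Dnm1l and Fundc1. As deposited, Mfn1 gave 0.12 (SE 0.15, adjusted p = 0.637), 0.05 (0.15, 0.888) and −0.08 (0.15, 0.743) after atrophy, recovery and repeated atrophy. Rescaled, it was called lower after repeated atrophy (−0.46, SE 0.14, adjusted p = 0.0179), which the rescaled block did not call (−0.42, adjusted p = 0.125), and its value after atrophy turned to −0.25 (adjusted p = 0.253).

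The ratio of Mfn2 to Mfn1 per kilobase does not depend on how a limb is scaled, and it is given as a description because it was chosen after the values were seen. It was 1.26 to 2.26 in control (median 1.86), 0.898, 1.35 and 1.34 in the atrophy limbs, 1.56, 1.48 and 1.28 in the recovery limbs and 1.22, 0.843 and 1.17 in the repeated atrophy limbs. All 3 repeated atrophy limbs were below all control limbs, and the left limb had the lower ratio in 3 of 3 animals after repeated atrophy and after recovery. The sham ratios were 1.44, 1.81 and 1.13 on the left and 1.59, 1.76 and 1.31 on the right. The third left sham limb, without TTX, was thus also below all control limbs. In the repeated atrophy limbs the mixture of mitofusin messages thus leaned more towards Mfn1, with a geometric mean ratio of 1.06 against 1.74 in control. The recovery limbs, at 1.432, overlapped control and were near the left sham limbs, at 1.435.

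Opa1 (chromosome 11, 71110751 to 71185072) was between 53.39 and 88.65 CPM in control (median 71.27). It was at 110.2, 103.6 and 92.49 CPM in the recovery limbs, 89.22, 60.44 and 78.64 in the atrophy limbs and 77.33, 101 and 74.35 in the repeated atrophy limbs. The recovery limbs lay wholly above control as deposited, but overlapped it when rescaled. Opa1 rose after recovery from 69.5 ± 12.0 to 102.1 ± 8.97 CPM (0.56, SE 0.16, adjusted p = 0.0394; rescaled 0.54, adjusted p = 0.0353). Left limbs were higher in 3 of 3 animals (mean 0.48, SD 0.32), but with the block it was no longer called (0.48, adjusted p = 0.279).

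The call on Opa1 held when the second atrophy animal (adjusted p = 0.0161) or the first repeated atrophy animal (0.0459) was left out, and without any other TTX animal the adjusted p was 0.053 to 0.2 at log2 fold changes of 0.52 to 0.67. Fibroblast markers moved with it. Their summed level was 1022 to 1918 CPM in recovery against 193.8 to 527.8 in control, with 4 of 5 called higher (5 of 5 when rescaled), and 3 of 7 macrophage markers were called higher there too (5 of 7 when rescaled), at a summed 98.1 to 203.7 against 35.3 to 131.5 CPM. Their part in the Opa1 result was not tested. After atrophy and repeated atrophy Opa1 gave 0.13 (adjusted p = 0.611) and 0.28 (adjusted p = 0.197), each with an SE of 0.16, and both turned negative when rescaled (−0.23 and −0.10). With the block they were 0.04 and 0.46 (adjusted p = 0.143 for the latter), and with the rescaled block −0.23 and 0.08. As deposited, left limbs were higher in 2 of 3 animals after atrophy and in 3 of 3 after repeated atrophy (mean 0.46, SD 0.35).

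**Figure D2:**
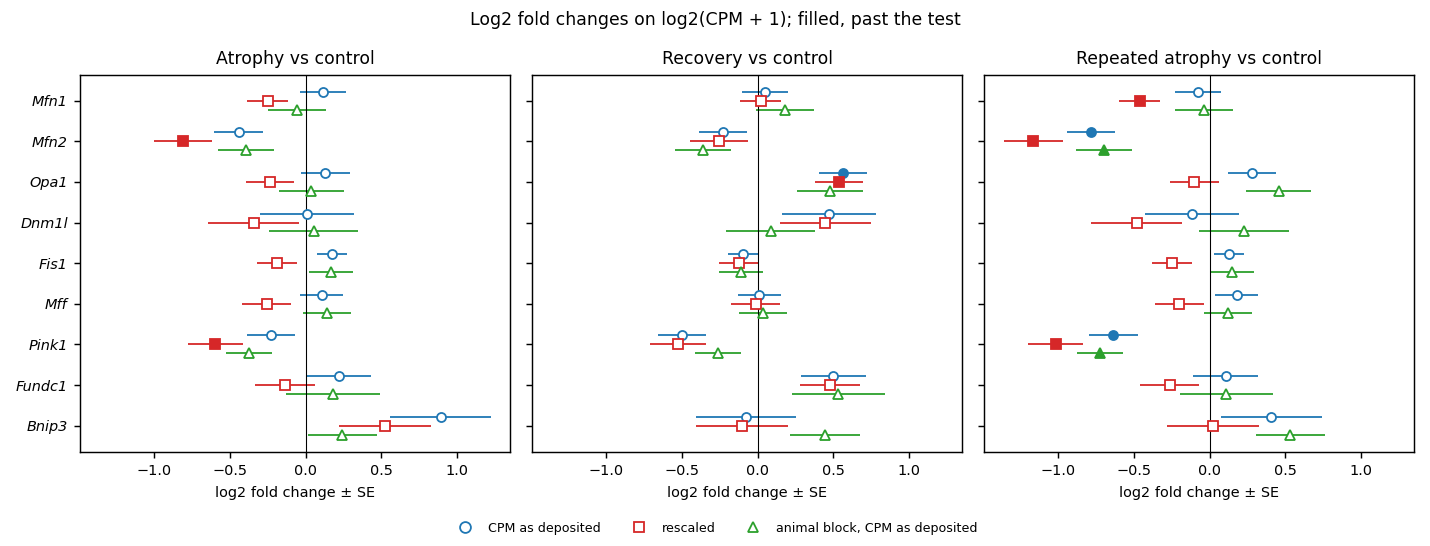
Log2 fold change against control with its SE (x axis) for the 9 genes (y axis) after atrophy, recovery and repeated atrophy, for CPM as deposited (circles), rescaled values (squares) and the animal block (triangles); filled symbols passed the test. Mfn2 and Pink1 were called by all 3 fits after repeated atrophy, at −0.70 to −1.17 and −0.64 to −1.02, and several small positive values as deposited turn negative when rescaled.

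By the rows used here, the fission genes showed no change that passed the test in a comparison with control, whereas a second Mff row, given after the first, did. The fission dynamin Dnm1l (chromosome 11, 84581216 to 84629914) was between 15.41 and 33.87 CPM in control (median 20.52), 26.92, 14.75 and 23.1 in the atrophy limbs, 24.4, 33.89 and 30.34 in the recovery limbs and 8.12, 28.59 and 29.43 in the repeated atrophy limbs. The recovery limbs lay in the upper part of the control range, the highest of them just past its top, and the repeated atrophy limbs were split to either side of its median. The fits gave 0.01 (SE 0.31, adjusted p = 0.992; rescaled −0.34), 0.47 (0.31, 0.362) and −0.11 (0.31, 0.824). The last value followed a single limb, and without the first repeated atrophy animal it was 0.41 (adjusted p = 0.253). Rescaled it was −0.48 (adjusted p = 0.265), and with the block it was 0.23. The value after recovery was 0.09 with the block.

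Fis1 (chromosome 12, 19708558 to 19723365), an outer membrane adaptor, was the least variable gene of the set, at 50.08 to 65.16 CPM in control (median 55.72). Its limbs were at 63.7, 62.82 and 66.57 CPM in the atrophy limbs, 54.51, 53.25 and 51.79 in the recovery limbs and 68.37, 58.48 and 60.69 in the repeated atrophy limbs. Each group overlapped control, and the values were 0.17 (SE 0.10, adjusted p = 0.223), −0.10 (0.10, 0.587) and 0.13 (0.10, 0.357). Both positive values became negative when rescaled (−0.19 and −0.25).

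Mff (chromosome 9, 84007798 to 84036040), the main receptor for Dnm1l, has 3 rows in the table, with lengths of 1907, 1858 and 1688 bases. The row of 1907 bases, with the highest mean, was at 60.69 to 97.78 CPM in control (median 82.36), 109.2, 83.28 and 72.74 in the atrophy limbs, 84.35, 79.13 and 81.39 in the recovery limbs and 94.65, 98.44 and 83.13 in the repeated atrophy limbs. Each group overlapped control, and the fits gave 0.11 (SE 0.14, adjusted p = 0.644), 0.01 (0.14, 0.974) and 0.18 (0.14, 0.363), of which all turned negative when rescaled (−0.26, −0.01 and −0.20).

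The row of 1858 bases behaved differently, and it was looked at after its values were seen. It was at 45.01 to 98.45 CPM in control (median 79.36), 54.84, 72.45 and 37.72 in the atrophy limbs, 97.19, 104.7 and 84.02 in the recovery limbs and 35.37, 47.99 and 33.79 in the repeated atrophy limbs. Of the repeated atrophy limbs 2 were below all control limbs and the other lay just inside their range. After atrophy it gave −0.46 (adjusted p = 0.142), or −0.63 without the second atrophy animal (adjusted p = 0.0555). This row fell after repeated atrophy (−0.91, SE 0.22, adjusted p = 0.00453; rescaled −1.29, adjusted p = 0.00194; block −0.80, adjusted p = 0.0146). It also differed between repeated atrophy and recovery (−1.28, SE 0.27, adjusted p = 0.00383), which the block, here on left-minus-right differences, did not call (−1.03, adjusted p = 0.121).

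As a description, the ratio of the 1907 row to the 1858 row was 0.954 to 1.53 in control, with a median of 1.03. It was 1.99, 1.15 and 1.93 in the atrophy limbs, 0.868, 0.756 and 0.969 in the recovery limbs and 2.68, 2.05 and 2.46 in the repeated atrophy limbs. The ratio was above all control limbs after repeated atrophy and in 2 of the 3 atrophy limbs. The left limb exceeded the right of the same animal in 3 of 3 animals after either TTX period, whereas the sham ratios were 1.06, 1.14 and 1.54 on the left and 0.993, 1.32 and 1.38 on the right. The row of 1688 bases was at 4.36 CPM or less in every limb. The table gives all 3 rows the same start and end, how reads shared by them were assigned is not given in the sources used here, and when the rows were summed Mff gave −0.23 after repeated atrophy.

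**Figure D3:**
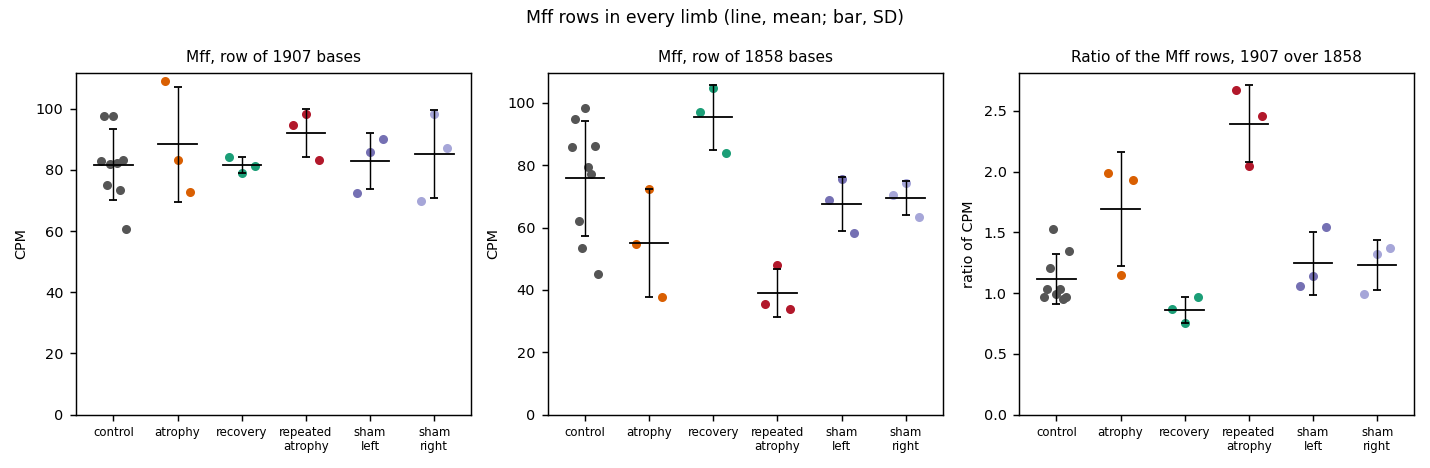
CPM of the Mff rows of 1907 and 1858 bases and the ratio of the former to the latter in each limb by group; points are limbs, lines are means and bars are SDs, and every axis starts at 0. The ratio was 2.05 to 2.68 in repeated atrophy, above the 0.954 to 1.53 of control, and 0.756 to 0.969 in recovery.

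The mitophagy kinase Pink1 (chromosome 5, 150530523 to 150542636), whose promoter is printed above with its E-boxes, was between 231.9 and 346.6 CPM in control (median 301). It was at 186.7, 180.2 and 193.6 CPM in the repeated atrophy limbs, 203, 348.1 and 214.3 in the atrophy limbs and 236.6, 192.5 and 189.6 in the recovery limbs. All repeated atrophy limbs were below all control limbs and close to each other, while the second atrophy limb was above every control limb and the other atrophy limbs were below them. Pink1 fell after repeated atrophy from 293.1 ± 39.5 to 186.8 ± 6.69 CPM (−0.64, SE 0.16, adjusted p = 0.00531). Rescaled, the fall was −1.02 (SE 0.18, adjusted p = 6.57e-04), and with the block it was −0.73 (adjusted p = 0.0084). Left limbs were lower in 3 of 3 animals (mean −0.73, SD 0.11). In these limbs the summed myofibre markers were below control (100900 to 130800 against 151200 to 203400 CPM; 1 of 6 called higher and 0 lower) and the satellite cell markers above it (39.1 to 69.0 against 5.75 to 14.1 CPM). The summed endothelial markers overlapped control (134.6 to 219.4 against 170.4 to 247.9 CPM), with 0 of 5 called as deposited and 3 of 5 called lower when rescaled. The part of these markers in the falls of Mfn2 and Pink1 was not tested.

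After atrophy Pink1 gave −0.23 (SE 0.16, adjusted p = 0.314). It was called when rescaled (−0.60, SE 0.18, adjusted p = 0.0475) and when the second atrophy animal was left out (−0.44, adjusted p = 0.0283), but not with the block (−0.38, adjusted p = 0.231) or the rescaled block (−0.64, adjusted p = 0.192). After recovery it gave −0.50 (SE 0.16, adjusted p = 0.0612), with left limbs lower in 3 of 3 animals (mean −0.26, SD 0.10). It was called there without the second atrophy animal (−0.47, adjusted p = 0.0286) and against all 12 right limbs (−0.54), but not rescaled (0.0665) or with the block (−0.26, adjusted p = 0.376). In the sham animals the left and right limbs were at 368.5 and 380.8, 233.5 and 239.9, and 373.6 and 365.2 CPM. The limbs of a sham animal thus differed by at most 0.0473 on the log2 scale as deposited, and by up to 0.206 in size when rescaled (−0.206 in the second animal).

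Fundc1 (chromosome X, 5083635 to 5100294), a mitophagy receptor, was between 18.94 and 31.96 CPM in control (median 22.65). It was at 36.2, 23.36 and 23.52 CPM in the atrophy limbs, 31.13, 34.1 and 34.48 in the recovery limbs and 16.33, 36.88 and 25.8 in the repeated atrophy limbs. Of the recovery limbs 2 were above all control limbs and the other lay inside their range, and the repeated atrophy limbs lay below, inside and above it. The fits gave 0.22 (SE 0.21, adjusted p = 0.502), 0.50 (0.21, 0.149) and 0.11 (0.21, 0.759), and the first and last turned to −0.14 and −0.26 when rescaled. After recovery left limbs were higher in 3 of 3 animals (mean 0.53, SD 0.17), and the block did not call the gene (adjusted p = 0.377). Left limbs were also higher in 3 of 3 sham animals (mean 0.17, SD 0.08).

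The mitophagy receptor Bnip3 (chromosome 1, 193708164 to 193725349) was the most variable gene of the set. It was between 254.1 and 946.3 CPM in control (median 329.4), 704.6, 595.4 and 905.8 in the atrophy limbs, 367.9, 367.4 and 374.1 in the recovery limbs and 590.8, 636.9 and 368.6 in the repeated atrophy limbs. The atrophy limbs lay in the upper part of the control range and the recovery limbs close to its median. The fits gave 0.89 (SE 0.33, adjusted p = 0.0601), −0.08 (0.33, 0.918) and 0.41 (0.33, 0.383), the last of which was 0.02 when rescaled. With the block Bnip3 was at 0.45 after recovery (adjusted p = 0.329). After repeated atrophy the block gave 0.53 (SE 0.23, unadjusted p = 0.0412 by limma, adjusted p = 0.109). With the rescaled block these values were 0.32 and 0.15. As deposited, left limbs were higher in 3 of 3 animals in both comparisons, but in 1 of 3 after atrophy (mean 0.24, SD 0.61). Without the second atrophy animal the value after atrophy was 1.13 (adjusted p = 0.0291), whereas the rescaled value was 0.52 (adjusted p = 0.289) and the block gave 0.24 (adjusted p = 0.581).

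Bnip3 varied between animals also without TTX. Over the 12 right limbs it varied 6.35-fold, from 254.1 to 1614 CPM, while the other genes varied 1.40-fold to 2.20-fold. The highest right limb of a TTX animal (946.3 CPM) came from the animal whose left limb had 905.8 CPM, and the third sham animal had 2309 CPM on the left and 1614 on the right, the highest values of all 24 limbs. In both of these animals the left and right limbs were high together. The satellite cell markers Pax7, Myf5 and Vcam1 were also high in that sham animal, at a summed 74.47 and 58.04 CPM against 4.02 to 8.98 in the other sham limbs and 5.75 to 14.1 in control, and they were 13.2 to 91.2 after atrophy and 39.1 to 69.0 after repeated atrophy, where 2 of 3 were called higher in each as deposited and 1 of 3 when rescaled. Their part in the Bnip3 levels was not tested.

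**Figure D4:**
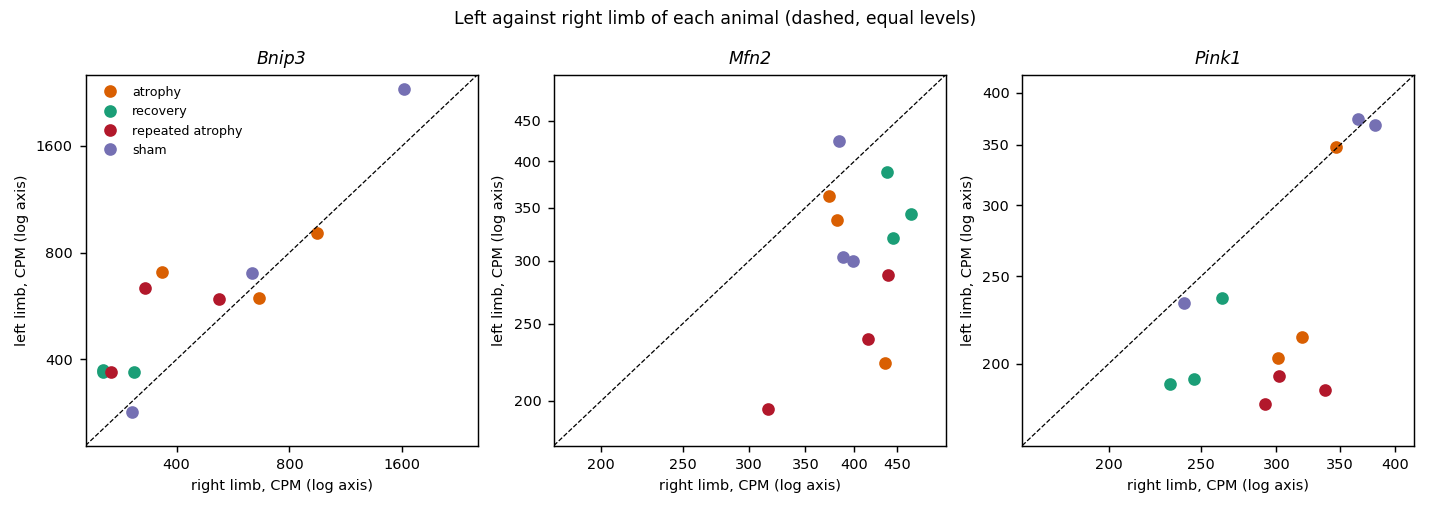
Left against right limb CPM of each of the 12 animals for Bnip3, Mfn2 and Pink1, on log axes; each point is an animal, coloured by group, and the dashed line marks equal levels. Bnip3 points rise with the line up to the sham animal at 1614 and 2309 CPM, and the 3 recovery and 3 repeated atrophy animals lie above it. The 3 repeated atrophy animals lie below the line for Mfn2 and Pink1.

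Set directly against each other, the treated groups differed in few of the 9 genes. Between recovery and atrophy 0 of 9 were called by limma (17.9% of rows were called; 3 of 9 had an unadjusted p below 0.05). Rescaled, Opa1 was called higher in recovery (0.77, SE 0.20, adjusted p = 0.0216; 10.7% of rows), from 0.43 as deposited (adjusted p = 0.127), and the rescaled block did not call it (0.57, adjusted p = 0.619). Between repeated atrophy and recovery 1 of 9 was called, Mfn2, which was lower in repeated atrophy by 0.55 on the log2 scale (−0.55, SE 0.20, adjusted p = 0.043; 27.2% of rows), a call that the block did not give (−0.33, adjusted p = 0.504). Between treated groups the block compares left-minus-right differences and so also holds the right limbs, whereas the fit without it compares left limbs alone. Without the block, the adjusted p of Mfn2 was 0.135 and 0.109 when the first or second repeated atrophy animal was left out. Without each recovery animal it was 0.057 to 0.165.

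Rescaled, 4 of 9 were called lower in repeated atrophy than in recovery (21.7% of rows called): Mfn2 (−0.91, adjusted p = 0.0127), Opa1 (−0.64, 0.0271), Fundc1 (−0.74, 0.0359) and Mfn1 (−0.48, 0.0448). These 4 thus took in all the fusion genes, and none of the 4 was called with the block, rescaled (adjusted p = 0.353 to 0.624). Between repeated and first atrophy 0 of 9 were called by limma, as deposited (0.0356% of rows; 0 of 9 at an unadjusted p below 0.05) or rescaled (0% of rows; 902 rows and 0 of 9 at an unadjusted p below 0.05). Mfn2 gave −0.34 (adjusted p = 0.909) and Pink1 −0.40 (adjusted p = 0.801) in that comparison, each with an SE of 0.20. The lower means of both genes after the second period were thus not distinguished from those after the first.

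In the sham animals 0 of 9 were called by limma between left limbs and control (0% of 13822 rows, of which 1904 had an unadjusted p below 0.05) or between left and right limbs (0% of 13483 rows, of which 576 did), and as deposited 0 of the 9 had an unadjusted p below 0.05 in either. Rescaled, Mfn2 had one against control, as given with its limbs above. Bnip3 gave 0.98 (SE 0.53, adjusted p = 0.404) against control, with 699.5, 285 and 2309 CPM in the left sham limbs, and Pink1 gave 0.13 (SE 0.17, adjusted p = 0.712). The 3 sham animals each came from another time, so that their spread also holds any difference between times.

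Other genes of the same processes were taken from 5 lists of related genes, chosen with earlier results of these data known, of which 62 genes were tested. With the animal block 0 of them were called by limma after atrophy or recovery, although 11 and 16 of the 62 had an unadjusted p below 0.05, and 19 higher and 4 lower after repeated atrophy. The counts of each list stand against 20.3% of all rows called higher and 2.33% lower in atrophy, 4.4% and 3.33% in recovery, and 28.1% and 6.24% in repeated atrophy. Among 14 genes of fusion and inner membrane shaping, 3 were called higher and 0 lower after atrophy, 3 and 0 for recovery, and 4 and 3 after repeated atrophy (rescaled 2 and 2, 2 and 1, and 2 and 6), with a median of 0.13 in the last against 0.20 over all rows. Chchd6, a subunit of the complex that forms cristae junctions, rose from 4.03 ± 2.44 CPM in control to 12.44 ± 5.26 after atrophy (1.47, adjusted p = 0.0134) and 17.5 ± 3.13 after repeated atrophy (2.01, adjusted p = 7.77e-04). Chchd3, another subunit of that complex, fell after repeated atrophy from 416 ± 86.8 to 292 ± 43.4 CPM (−0.50, adjusted p = 0.0316). Yme1l1, an inner membrane protease that cuts Opa1, rose after atrophy (1.12, adjusted p = 0.00738) and repeated atrophy (1.09, adjusted p = 0.00195). All 5 of these calls held when rescaled.

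In the same list, Phb2, a prohibitin of the inner membrane, was called after atrophy as deposited (0.32, adjusted p = 0.0301) and gave −0.05 when rescaled. Slc25a46, an outer membrane protein of the carrier family, was called after repeated atrophy (0.50, adjusted p = 0.0486; rescaled 0.12, adjusted p = 0.697). Miga2, a mitoguardin of the outer membrane (−0.55, adjusted p = 0.032), and Samm50, which inserts outer membrane proteins (−0.39, adjusted p = 0.0129), fell after repeated atrophy and held when rescaled. The block called none of these 3 (adjusted p = 0.069, 0.0761 and 0.172 for Slc25a46, Miga2 and Samm50). After recovery Parl, the protease that cuts Pink1, rose from 28.2 ± 3.55 to 43.7 ± 2.44 CPM (0.62, adjusted p = 0.00815), with Immt (0.66, adjusted p = 0.0428; rescaled adjusted p = 0.0604), the core subunit of the cristae complex, and the inner membrane protease Afg3l2 (0.52, adjusted p = 0.0163). The list was chosen for inner membrane shaping, and 5 of its 14 genes were below 0 after recovery. None of the calls on Parl, Immt and Afg3l2 held with the block (adjusted p = 0.2 to 0.436). Parl was also called after repeated atrophy (0.50, adjusted p = 0.00545). There the block kept the call (0.63, adjusted p = 0.0162) and the rescaled fit did not (0.12, adjusted p = 0.591).

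Among 12 fission adaptors and regulators, 4 were called higher and 1 lower after atrophy, 1 and 0 for recovery, and 4 and 3 after repeated atrophy (rescaled 1 and 2, 0 and 0, and 3 and 3), with a median of 0.16 in the last. Spire1, which nucleates actin at sites of division, rose from 7.06 ± 2.75 CPM to 25.5 ± 11.9 after atrophy (1.67, adjusted p = 0.00651) and 44.6 ± 16.7 after repeated atrophy (2.49, adjusted p = 8.63e-05). Dnm2, a dynamin of membrane scission, rose by 0.67 (adjusted p = 0.0273; rescaled 0.30, adjusted p = 0.216) and 1.25 (adjusted p = 2.93e-04). Marchf5, an outer membrane ubiquitin ligase, rose by 0.67 (adjusted p = 0.0106; rescaled 0.31, adjusted p = 0.112) and 0.72 (adjusted p = 0.00246). In the same comparisons Dnm1l, Fis1 and the Mff row of 1907 bases were not called.

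In the other direction, Mul1, an outer membrane ligase that acts on Mfn2 and Dnm1l, fell from 49.6 ± 3.85 to 35.1 ± 9.27 CPM after atrophy (−0.52, adjusted p = 0.0186) and 31.8 ± 4.61 after repeated atrophy (−0.63, adjusted p = 0.00301). Mtfp1, an inner membrane fission protein (−0.95, adjusted p = 0.00583), and Gdap1 (−1.10, adjusted p = 0.0275), an outer membrane fission factor, fell after repeated atrophy, and neither was called with the block (adjusted p = 0.0612 and 0.149). Mtfr1l was the only gene of this list called after recovery (0.48, adjusted p = 0.0263; rescaled adjusted p = 0.056).

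Among 17 mitophagy receptors and regulators, 5 were called higher and 0 lower after atrophy, 0 and 1 for recovery, and 8 and 1 after repeated atrophy (rescaled 0 and 1, 0 and 1, and 6 and 2), with a median of 0.43 in the last (rescaled 0.08). The cargo receptors Sqstm1 (841 ± 482 to 2037 ± 406 CPM, 1.41, adjusted p = 0.00349) and Nbr1 (113 ± 20.5 to 230 ± 21.8 CPM, 1.04, adjusted p = 3.93e-04) and the receptor Bnip3l (0.96, adjusted p = 0.00173), a close relative of Bnip3, rose after repeated atrophy. All 3 of these calls held when rescaled and with the block. Nipsnap2, a matrix protein that can flag damaged mitochondria, fell (−0.50, adjusted p = 0.0108), a call also lost with the block (adjusted p = 0.0916). The 3 receptors rose in the comparison in which Pink1 fell.

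After atrophy the called genes of that list with the largest rises were Bnip3l (0.82, adjusted p = 0.0115), Tomm7 (0.78, adjusted p = 0.0151), an import subunit that holds Pink1 at the membrane, and Nbr1 (0.74, adjusted p = 0.0102), while Sqstm1 was at 0.88 without passing the test (adjusted p = 0.0627). None of these 3 was called when rescaled (0.38 to 0.46, adjusted p = 0.061 to 0.146). After recovery Ulk1, the kinase that starts autophagy, fell from 52.6 ± 17.5 to 26.6 ± 2.60 CPM (−0.91, adjusted p = 0.0234; rescaled adjusted p = 0.0103).

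Among 7 genes of mitochondrial transport, 2 were called higher and 1 lower after atrophy, 1 and 0 for recovery, and 3 and 1 after repeated atrophy (rescaled 2 and 2, 1 and 0, and 2 and 2), with a median of 0.02 in the last. Kif5b, the kinesin that carries mitochondria, rose from 44.2 ± 13.1 to 150 ± 112 CPM after atrophy (1.53, adjusted p = 0.00709) and 175 ± 25.1 after repeated atrophy (2.00, adjusted p = 2.35e-04). Rhot1, the outer membrane anchor also called Miro1, rose by 1.13 (adjusted p = 0.00968) and 1.83 (adjusted p = 1.33e-04). Trak2, the adaptor between them, fell by 0.61 (−0.61, adjusted p = 0.0276) and 0.75 (−0.75, adjusted p = 0.00519) on the log2 scale. Mtx2, an outer membrane protein, was called after recovery (0.60, adjusted p = 0.0383) and repeated atrophy (0.50, adjusted p = 0.0297), where it was 0.12 when rescaled and was not called with the block (adjusted p = 0.08).

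Among 12 genes that track mitochondrial mass, 3 were called higher and 1 lower after atrophy, 0 and 0 after recovery by limma (4 of 12 at an unadjusted p below 0.05), and 3 and 2 after repeated atrophy, with a median of −0.16 in the last. Rescaled, 0 were called higher and 3, 0 and 5 lower. Sdha, a subunit of complex II, fell from 674 ± 160 to 384 ± 81.2 CPM after atrophy (−0.79, adjusted p = 0.0124) and 353 ± 6.92 after repeated atrophy (−0.89, adjusted p = 0.00265), and Cs, citrate synthase, fell after repeated atrophy (−0.51, adjusted p = 0.0392), a call lost with the block (adjusted p = 0.113). The outer membrane import subunits Tomm20 (0.75 and 0.78), Tomm70 (0.60 and 0.64) and Tomm22 (0.48 and 0.48) were called higher as deposited after both periods, and none of them was called when rescaled.

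**Figure D5:**
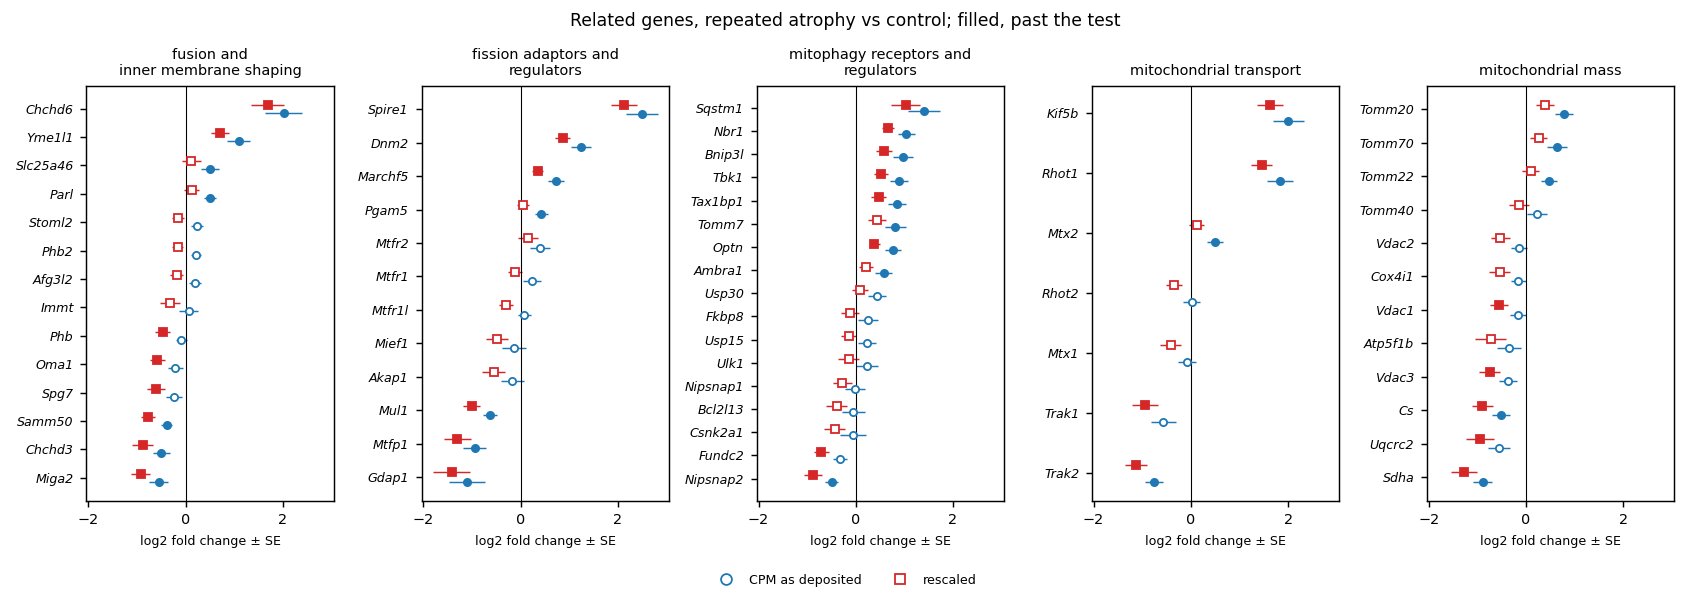
Log2 fold change of repeated atrophy against control with its SE (x axis) for the genes of the 5 related lists (y axis, ordered by the deposited values), for CPM as deposited (circles) and rescaled values (squares); filled symbols passed the test. Spire1, Kif5b, Chchd6 and Rhot1 rose most, by 1.83 to 2.49 as deposited, and each was also called when rescaled.

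The genes whose pattern over all 24 limbs was most like that of the 3 called genes were found by the root mean square difference of centred log2(CPM + 1), over 6766 rows with a mean of at least 10 CPM. For Mfn2 these were Fam160b2 (0.13), Mavs (0.16) and Pank4 (0.17), against an SD of 0.32 of Mfn2 itself. For Pink1 they were Tango2 (0.16), Uckl1 (0.17) and Vps13d (0.18; own SD 0.36), and for Opa1 Grsf1 (0.13), Fastkd2 (0.14) and Hspa9 (0.15; own SD 0.28). The 24 limbs share animals, groups and scaling, so this likeness is a description.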

How the data were processed

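Directional poly(A) RNA libraries of the TA of 12 rats (24 limbs) were made in randomized order. Per the labels and the study's methods, the authors removed contaminant reads with Bowtie2 2.2.5, aligned the rest to rn7 with STAR and used Partek Flow. The counting step and annotation are not given in the sources used here. The deposited values are CPM, since each column sums to 1000000, although a median of ratios scaling is described, so a test for CPM was used in place of the one first planned. Of 27 value columns 3 matched no sample and were not used. Of 14271 rows 28 duplicates were dropped. Depth was inferred from low values, of which 86.4% to 88.4% were whole reads within 0.02, too few to recover counts.

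Rows above 0 in at least 3 limbs (14031) were fitted with limma 3.58.1 (R 4.3.3) with a trend on log2(CPM + 1), control and the 3 TTX groups together. The sham limbs were fitted apart. Rescaling trimmed 30% of ratios and 5% of levels. The labels give the animal. Left and right limbs deviated together with a mean r of 0.12 over the 9 TTX animals (3 negative) and 0.74 over the 3 sham animals. Other values were computed with Python 3.11.15, numpy 2.4.6 and pandas 2.3.3, and the fit was tested on simulated data.

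The 9 genes and all lists were chosen with earlier results of these data known. Named from the related lists were up to 3 called genes with the largest rise and 3 with the largest fall per comparison with control, and closest patterns were sought for genes called in at least 1 of those comparisons. A gene of the related mitophagy list is not reported here and was left out of its counts.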

Additional observations from a re-analysis of the deposited data

How the results depend on the processing

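After repeated atrophy Mfn2 and Pink1 were called under every alternative run, including without each animal in turn (2 to 2 genes called). Their count of 2 became 3 with either rescaling, when Mfn1 was called too. The other comparisons moved further. After atrophy, 0 genes as reported became 2 with a trimmed mean or median of ratios rescaling or when rows needed a mean of 10 CPM or more, 1 with a pseudocount of 10, no filter, no trend, 12 right limbs as control or rows summed per symbol, and 0 to 3 without each animal. Without the second atrophy animal Mfn2 (−0.59), Pink1 (−0.44) and Bnip3 (1.13) were called after atrophy, and Pink1 (−0.47, adjusted p = 0.0286) after recovery. After recovery, 1 became 0 at a fold change of at least 1.5 and with the replicate block, as deposited or rescaled, 2 with 12 right limbs (Pink1 too, −0.54), and 0 to 2 without each animal. Recovery against atrophy went from 0 to 1 with either rescaling. Repeated atrophy against recovery went from 1 to 4 with either rescaling, to 0 at a fold change of 1.5 and with the replicate block, as deposited or rescaled, and to 0 to 1 without each animal. Among the calls as deposited on the rows used for the 9 genes, the block changed no other. Beyond them, it ended the calls of the Mff row of 1858 bases between recovery and atrophy (adjusted p = 0.609) and between repeated atrophy and recovery (0.121), and left 0 of the related genes called after atrophy (17 higher and 3 lower without it) or after recovery (5 and 1). On rescaled values it also ended those of Mfn2 (adjusted p = 0.252) and Pink1 (0.192) after atrophy, Mfn1 after repeated atrophy (0.125) and Opa1 between recovery and atrophy (0.619). Between treated groups the block compares left-minus-right differences, which is not the same question as the fit without it. The cause of these changes was not tested.

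Of the values against control, and those between treated groups that the report prints, these uncalled ones changed sign. Uncalled values that the report does not print, in the sham limbs and between treated groups, also did and are not listed. With the trimmed mean (median of ratios) rescaling, atrophy gave Mfn1 −0.25 (−0.26), Opa1 −0.23 (−0.24), Dnm1l −0.34 (−0.35), Fis1 −0.19 (−0.20), Mff −0.26 (−0.27) and Fundc1 −0.14 (−0.15), recovery gave Mff −0.01 (−0.00), repeated atrophy gave Opa1 −0.10 (−0.10), Fis1 −0.25 (−0.25), Mff −0.20 (−0.20) and Fundc1 −0.26 (−0.26), and the left sham limbs gave Pink1 −0.09 (−0.10). With the replicate block, Bnip3 was 0.45 after recovery, Dnm1l 0.23 after repeated atrophy and Mfn1 −0.06 after atrophy. With the block on rescaled values, which was added after seeing the data, as were the Mff row of 1858 bases and both ratios, atrophy gave Bnip3 −0.02, Fundc1 −0.08, Fis1 −0.09, Mff −0.12, Dnm1l −0.20, Opa1 −0.23 and Mfn1 −0.32, recovery gave Dnm1l −0.04, Mff −0.09 and Bnip3 0.32, and repeated atrophy gave Fis1 −0.23, Fundc1 −0.26 and Mff −0.26. Mff was −0.00 after recovery with 12 right limbs, and −0.12 after atrophy and −0.23 after repeated atrophy with its rows summed. Without each animal in turn, the ranges that crossed 0 were, after atrophy, Dnm1l −0.13 to 0.20, Mff −0.05 to 0.18 and Opa1 −0.01 to 0.33, after recovery, Bnip3 −0.16 to 0.08, Mff −0.04 to 0.05 and Mfn1 −0.04 to 0.12, after repeated atrophy, Dnm1l −0.46 to 0.41, Fundc1 −0.20 to 0.45 and Mfn1 −0.25 to 0.17, and for Mfn1 between repeated atrophy and recovery −0.30 to 0.11.

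With 3 limbs a group, the SE of 0.31 for Dnm1l and 0.33 for Bnip3 limits what these comparisons can show for either gene. CPM gives shares of a library, so levels per muscle are not known.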
